A study of Caenorhabditis elegans with 16 samples.

Results

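The UDP-glucuronosyltransferase (UGT) genes of *Caenorhabditis elegans* were compared across wild type animals and 3 strains that express an activated, truncated form of the transcription factor SKN-1. The members were all rows of the count table whose gene name begins with ugt-, which gave 66 of 19122 genes. They were taken by name alone, but the family was chosen with earlier results of these data known. All 66 were found as protein-coding genes in the Ensembl annotation of genome build WBcel235, with 41 on chromosome V, 12 on IV, 5 on I, 4 on X, 3 on III and 1 on II.

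UGT enzymes sit in the membrane of the endoplasmic reticulum and transfer a sugar from a UDP-sugar donor onto small lipophilic molecules, which makes those molecules more soluble and easier to export. In mammals the usual donor is UDP-glucuronic acid, and drugs, bilirubin and steroids are among the acceptors. Nematodes also attach glucose to xenobiotics. The reaction belongs to phase II of detoxification, together with conjugation to glutathione. The substrates of most nematode UGTs are not known, so the members are described here by their levels, positions and changes.

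RNA was measured by poly(A) sequencing of whole animals collected at the L4 larval stage after synchronised growth, with 4 samples per genotype and 16 in all. SKN-1t[DNDD] animals (strain NJL2494) carry *unc-119(ed3)* III and the transgene mgTi41, in which 3 of the 4 glycosylated asparagines (Asn) are replaced by aspartate (Asp). SKN-1t[NDNN] animals (strain NJL2492) carry *unc-119(ed3)* III and mgTi42, with 1 such substitution. SKN-1t[NNNN] animals (strain GR3105) carry *unc-119(ed3)* III and mgTi21, with none. The wild type was the non-transgenic strain N2, which does not carry the *unc-119* allele. Each Asp stands for a site that has been edited when the sugar is removed from SKN-1A, so the strains model extensive editing, a single edit and the unedited SKN-1C form. Every transgene is a single copy driven by the ubiquitous *rpl-28* promoter with an HA and a GFP tag, and each genotype is represented by 1 strain. Strain background, the *unc-119* allele and the transgene cannot be told apart in a comparison with the wild type. The labels number the 4 samples of a genotype as replicates, and the study's methods say that its biological replicates came from separate worm populations.

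Between 23806929 and 30457636 reads per sample were assigned to genes. Levels are given as counts per 1000000 reads (CPM) scaled by trimmed mean of M-values (TMM) factors. Every wild type TMM factor was below those of the transgenic samples, and without them the log2 differences from the wild type would move up by 0.24 in SKN-1t[DNDD], 0.18 in SKN-1t[NDNN], and 0.21 for SKN-1t[NNNN]. *skn-1*, whose reads come from the endogenous gene and the transgene together, averaged 238 ± 22.4, 283 ± 28.4 and 302 ± 26.9 CPM in SKN-1t[DNDD], SKN-1t[NDNN] and SKN-1t[NNNN], against 123 ± 9.03 CPM in the wild type (SD, n = 4 each). Every transgenic sample was above every wild type sample. 8 intestine markers summed to 6945 to 8576 CPM in SKN-1t[DNDD], 7813 to 8488 CPM in SKN-1t[NDNN] and 7959 to 9771 CPM in SKN-1t[NNNN], against 11637 to 15990 CPM in the wild type, and none of the 8 was at 0. The 6 vitellogenin genes, yolk genes of the adult intestine, summed to 143 to 3710, 109 to 867 and 95.0 to 221 CPM in SKN-1t[DNDD], SKN-1t[NDNN] and SKN-1t[NNNN], against 4267 to 23807 CPM in the wild type. The 31 major sperm protein genes summed to 313, 192, 989 and 1055 CPM in SKN-1t[DNDD], 82.1, 70.1, 297 and 322 CPM in SKN-1t[NDNN] and 58.5, 61.2, 184 and 656 CPM in SKN-1t[NNNN], against 92.6, 124, 401 and 344 CPM in the wild type, so SKN-1t[DNDD] was highest within each of the 4 replicate numbers. None of the 29 tested sperm genes passed the test in SKN-1t[DNDD] (more than 2-fold, edgeR adjusted p below 0.01), and with the replicate number as a block 25 of the 29 were higher than in the wild type, 26 than in SKN-1t[NNNN] and 24 than in SKN-1t[NDNN]. 5 germline markers summed to 92.7 to 683, 76.6 to 293 and 93.5 to 565 CPM in SKN-1t[DNDD], SKN-1t[NDNN] and SKN-1t[NNNN], against 48.9 to 144 CPM in the wild type, and 4 muscle markers to 2427 to 3901, 2211 to 3852 and 2832 to 4203 CPM, against 1905 to 2416 CPM. All SKN-1t[DNDD] and SKN-1t[NNNN] samples were above the wild type in the muscle sum. Of these, *glp-1* and *hlh-1* were called higher in SKN-1t[NDNN] and SKN-1t[NNNN], while with the block 4 of the 5 germline markers were higher in SKN-1t[DNDD] and *glp-1* was no longer called in SKN-1t[NDNN]. 5 hypodermis markers summed to 2762 to 2915, 2208 to 3648 and 1176 to 2476 CPM, against 2064 to 3532 CPM, and 5 neuron markers to 213 to 299.6, 224 to 271 and 188 to 266 CPM, against 218 to 247 CPM, and both overlapped the wild type in every strain. In the hypodermis list *dpy-7* was called higher in SKN-1t[NDNN] and SKN-1t[NNNN], *bli-1* was higher in SKN-1t[NDNN] and *col-19* lower in SKN-1t[NNNN], and with the block 2 of the 5 were higher in SKN-1t[DNDD]. None of the germline, muscle, hypodermis and neuron markers was at 0 in a whole genotype. In whole animals, fewer cells of a type and less RNA per cell cannot be told apart. The part of tissue and germline proportions and developmental timing in the UGT differences below was not tested.

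Levels of the members spanned a wide range in the wild type. Divided by the deposited gene length, the mean wild type level ran from 0.00647 to 225 CPM per kb, with a median of 7.93 CPM per kb, and 13 members were below 1 CPM before division by length. The 5 highest members per kb in the wild type were *ugt-22* (225 ± 50.3 CPM per kb), *ugt-47* (217 ± 52.5), *ugt-23* (124 ± 7.87), *ugt-6* (103 ± 6.74) and *ugt-26* (101 ± 20.3) (SD, n = 4). *ugt-22* and *ugt-47* did not differ beyond their spread, and neither did *ugt-6* and *ugt-26*. In SKN-1t[DNDD] animals the order per kb was *ugt-22* (131), *ugt-12* (65.2), *ugt-47* (56.4), *ugt-48* (51.6) and *ugt-23* (50.8). In SKN-1t[NDNN] animals it was *ugt-22* (207), *ugt-12* (102), *ugt-48* (89.5), *ugt-58* (67.5) and *ugt-13* (61.8). In SKN-1t[NNNN] animals it was *ugt-22* (214), *ugt-48* (110.4), *ugt-12* (109.7), *ugt-13* (101) and *ugt-58* (77.9). *ugt-22* thus led in every genotype, while *ugt-13* stood at 2.19 CPM per kb in the wild type.

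Summed over the family, UGT transcripts were less abundant in every transgenic strain than in the wild type. The sum was 1983, 1954, 1806 and 1779 CPM in the 4 SKN-1t[DNDD] samples, 2411, 2383, 2218 and 2245 CPM in the SKN-1t[NDNN] samples and 2710.0, 2462, 2262 and 2161 CPM in the SKN-1t[NNNN] samples, against 2784, 3208, 3514 and 3434 CPM in the wild type samples. No transgenic sample reached the lowest wild type sample, and the SKN-1t[DNDD] samples lay below all others. Without TMM scaling the highest SKN-1t[NNNN] sample (2745 CPM) exceeded the lowest wild type sample (2581 CPM). The 5 members with the highest CPM made up 43.3% of the wild type sum, so the sum gives most weight to a few abundant genes. The intestine markers were lower in the same samples, and their part in the family sum was not tested.

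**Figure D1:**
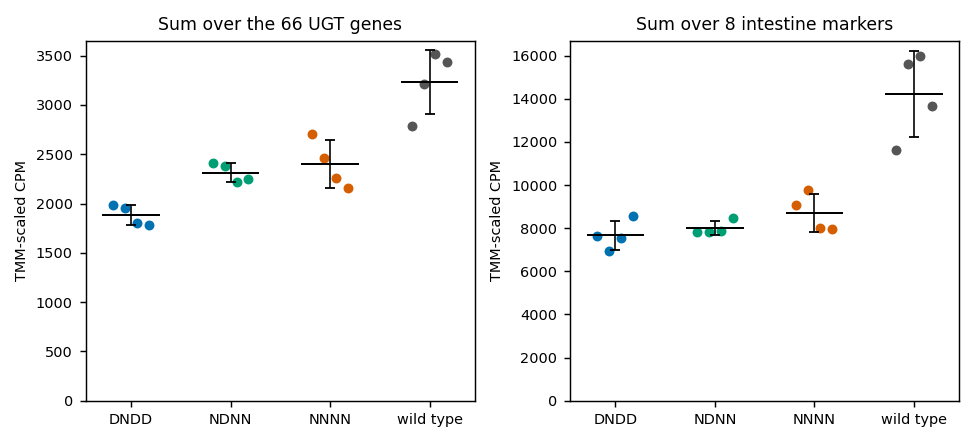
Sum of TMM-scaled CPM over the 66 UGT genes (left) and over 8 intestine markers (right) in each of the 16 samples, with the genotype on the x axis. Points are samples, and lines and bars are the mean ± SD (n = 4). Both sums are highest in the wild type, and the UGT sum is lowest in SKN-1t[DNDD].

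The family sum hid changes in both directions. A gene was counted as higher or lower when it changed more than 2-fold with an adjusted p below 0.01 (edgeR quasi-likelihood test, Benjamini-Hochberg adjustment over all genes tested). In SKN-1t[DNDD], 59 members passed the filter on low counts, 10 of them were higher, against 3.44% of all genes tested, and 14 were lower, against 3.35% of all genes. In SKN-1t[NDNN], 60 members were tested, 12 were higher, against 6.85% of all genes, and 13 were lower, against 3.34%. In SKN-1t[NNNN], 61 members were tested, 16 were higher, against 7.03% of all genes, and 14 were lower, against 6.12%. The members called therefore made up 16.9%, 20% and 26.2% of those tested on the higher side, and 23.7%, 21.7% and 23% on the lower side, in SKN-1t[DNDD], SKN-1t[NDNN] and SKN-1t[NNNN]. The median absolute log2 fold change of the members was 0.99, 0.84 and 1.02 in these comparisons, against 0.45, 0.36 and 0.42 for all genes tested, while the signed medians of the members were -0.41, -0.33 and -0.33, against 0.04, 0.08 and 0.14. At an adjusted p below 0.05 without a fold threshold, SKN-1t[DNDD] had 10 members higher and 25 lower (13.4% and 16.4% of all genes), SKN-1t[NDNN] 16 and 25 (18.1% and 14.8%) and SKN-1t[NNNN] 20 and 23 (20% and 17.1%), so that on the higher side the members' share stood nearer to that of all genes. With the replicate number as a block, SKN-1t[DNDD] had 10 members higher, against 11.8% of all genes, and 16 lower, against 4.38%, so the share of all genes called higher rose with the block while the members' count did not. All 3 comparisons used the same 4 wild type samples.

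Across the 3 comparisons, which share their wild type samples, 36 of the 61 members tested passed at least once, against 17% of all genes tested. The shares over the 3 comparisons together were counted only without the replicate block. 16 were higher in at least 1 strain, against 9.3% of all genes, and 20 were lower in at least 1 strain, against 7.71%. No member was called higher in one strain and lower in another, which was the case for 1 of all 14566 genes tested (0.00687%). 10 members were higher in all 3 strains, against 1.64% of all genes: *ugt-7*, *ugt-8*, *ugt-9*, *ugt-10*, *ugt-13*, *ugt-14*, *ugt-34*, *ugt-35*, *ugt-45* and *ugt-66*. 8 were lower in all 3, against 1.46% of all genes: *ugt-1*, *ugt-6*, *ugt-23*, *ugt-28*, *ugt-29*, *ugt-30*, *ugt-47* and *ugt-49*. For each call, the 4 samples of the strain lay wholly above or wholly below the 4 wild type samples. The difference then has the same sign in replicates 1 and 2 as in replicates 3 and 4, so that agreement adds no support. The thresholds of the call favour groups that stand apart, and the share of all called genes that did so was not counted. Leaving out each sample in turn, all 8 refits kept the call for 15 of 24 members in SKN-1t[DNDD], 16 of 25 in SKN-1t[NDNN], and 22 of 30 in the SKN-1t[NNNN] comparison. The count of higher members in SKN-1t[DNDD] was the least stable, at 5 called without SKN-1t[DNDD] replicate 1, without wild type replicate 1 or without wild type replicate 2, and 6 without wild type replicate 3 or 4. The count of lower members in SKN-1t[NDNN] was 8 without SKN-1t[NDNN] replicate 4 or without wild type replicate 4, against 13 with every sample.

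**Figure D2:**
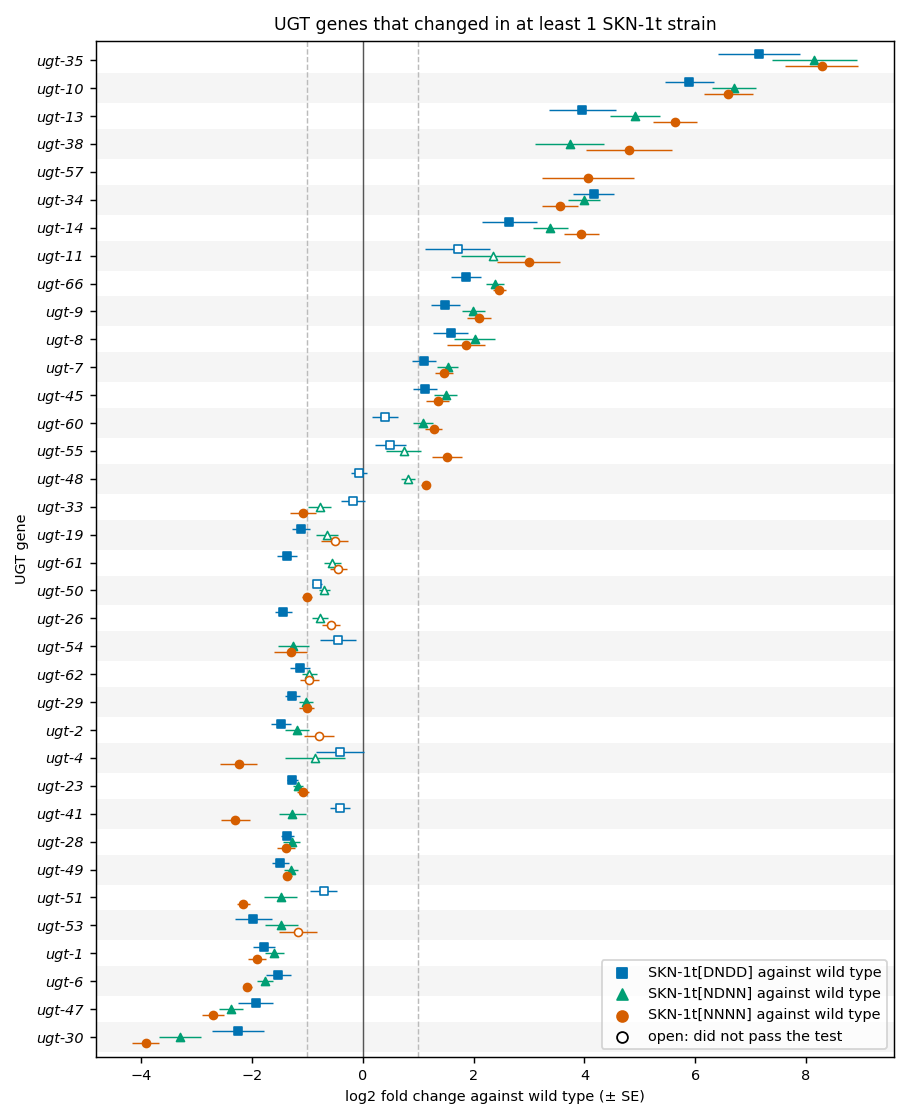
Log2 fold change against the wild type (x axis, ± SE of the edgeR fit, n = 4 per group) of the 36 UGT genes that passed the test in at least 1 strain (y axis), with squares for SKN-1t[DNDD], triangles for SKN-1t[NDNN] and circles for SKN-1t[NNNN]. Open symbols did not pass the test, a missing symbol means that the gene was not tested in that strain, and dashed lines mark 2-fold. 16 genes lie to the right and 20 to the left, and the rises reach further than the falls.

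Of the members with the largest rises, *ugt-10*, *ugt-13* and *ugt-14* lie in a run on chromosome V. The run holds *ugt-12*, *ugt-11*, *ugt-9*, *ugt-10*, *ugt-8*, *ugt-14* and *ugt-13* within 24.2 kb (4887165 to 4911399), and the run was picked out after its values were seen. *ugt-13* had 90.5, 83.8, 21.3 and 26.4 CPM in SKN-1t[DNDD] animals, 117, 155, 66.8 and 65.6 CPM in SKN-1t[NDNN] animals and 220.2, 181, 157 and 102 CPM in SKN-1t[NNNN] animals, against 2.37, 1.96, 5.97 and 4.03 CPM in the wild type. The lowest transgenic sample was above the highest wild type sample, and within each strain replicates 1 and 2 were above replicates 3 and 4. The log2 fold changes were 3.96 ± 0.60, 4.91 ± 0.45 and 5.63 ± 0.40 in SKN-1t[DNDD], SKN-1t[NDNN] and SKN-1t[NNNN], with adjusted p of 0.00193, 0.000163 and 3.4e-05 (edgeR quasi-likelihood test, Benjamini-Hochberg). *ugt-10* had 10.2, 9.51, 7.62 and 7.73 CPM in SKN-1t[DNDD] animals, 12.2, 13.7, 13.4 and 18.6 CPM in SKN-1t[NDNN] animals and 13.5, 9.59, 15.8 and 14.0 CPM in SKN-1t[NNNN] animals, against 0.0831, 0.0435, 0.292 and 0.152 CPM in the wild type. *ugt-10* stayed below 1 CPM in the wild type and was above 7 CPM in all 12 transgenic samples, with log2 fold changes of 5.89 ± 0.44, 6.70 ± 0.40 and 6.60 ± 0.44 in SKN-1t[DNDD], SKN-1t[NDNN] and SKN-1t[NNNN]. *ugt-14* had 2.08, 3.45, 1.72 and 0.724 CPM in SKN-1t[DNDD] animals, 2.23, 3.80, 3.74 and 2.79 CPM in SKN-1t[NDNN] animals and 3.85, 4.46, 3.94 and 5.83 CPM in SKN-1t[NNNN] animals, against 0.332, 0.174, 0.334 and 0.418 CPM in the wild type, again with no overlap, and its log2 fold changes were 2.65 ± 0.50, 3.38 ± 0.32 and 3.94 ± 0.32 in SKN-1t[DNDD], SKN-1t[NDNN] and SKN-1t[NNNN].

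The neighbours *ugt-8*, *ugt-9* and *ugt-11* rose by less. *ugt-8* averaged 11.03 ± 3.73, 14.1 ± 5.64 and 12.3 ± 4.66 CPM in SKN-1t[DNDD], SKN-1t[NDNN] and SKN-1t[NNNN], against 3.69 ± 1.12 CPM in the wild type, and *ugt-9* averaged 8.74 ± 2.48, 11.8 ± 1.89 and 12.4 ± 2.41 CPM, against 3.13 ± 0.737 CPM (SD, n = 4). Their log2 fold changes lay between 1.49 and 2.10. The SKN-1t[NDNN] call of *ugt-8* was lost with the replicate number as a block (edgeR adjusted p = 0.0151). Its calls were also lost without wild type replicate 2 or 4 in SKN-1t[NDNN] (highest adjusted p 0.0151), without SKN-1t[NNNN] replicate 3 or wild type replicate 2 in SKN-1t[NNNN] (0.0126) and in 7 of 8 refits in SKN-1t[DNDD] (0.0279), where only the fit without SKN-1t[DNDD] replicate 4 kept it. *ugt-11* had 11.6, 12.01, 4.30 and 5.23 CPM in SKN-1t[DNDD] animals, 17.7, 16.7, 7.24 and 6.88 CPM in SKN-1t[NDNN] animals and 28.8, 19.5, 17.6 and 9.40 CPM in SKN-1t[NNNN] animals, against 0.831, 1.48, 5.34 and 2.51 CPM in the wild type. Its samples overlapped the wild type in SKN-1t[DNDD] and stood apart in the other strains, and only SKN-1t[NNNN] passed the test (log2 fold change 2.99 ± 0.57, edgeR adjusted p = 0.00385), a call that was lost without SKN-1t[NNNN] replicate 1, 2 or 3 or wild type replicate 2 or 4 (highest adjusted p 0.0167). *ugt-12*, at the edge of the run and the highest of the 7 per kb in the wild type (76.0 CPM per kb), did not pass the 2-fold test in any strain, with 109 ± 37.2, 169.9 ± 31.3 and 184 ± 34.5 CPM in SKN-1t[DNDD], SKN-1t[NDNN] and SKN-1t[NNNN], against 127 ± 11.3 CPM in the wild type.

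In all, 5 of the 7 genes of this run were higher in SKN-1t[DNDD], 5 also in SKN-1t[NDNN], 6 in SKN-1t[NNNN], and none was lower. The run also holds 2 protein-coding genes that are not members. One, listed as H23N18.4 in the count table and as *ugt-67* in the annotation, had a mean of 0.123, 0.319 and 0.222 CPM in SKN-1t[DNDD], SKN-1t[NDNN] and SKN-1t[NNNN], against 0.0389 CPM in the wild type, and did not pass the filter on low counts. The other, T19H12.2, averaged 34.5 ± 27.7, 17.0 ± 9.85 and 23.5 ± 16.4 CPM, against 12.4 ± 5.54 CPM in the wild type, with overlapping samples, and did not pass the test in any strain (edgeR adjusted p = 0.0713, 0.376 and 0.132), although with a replicate block it did in SKN-1t[DNDD] (adjusted p = 0.00621). Reads that match several of these related genes could not be followed here, because the sequences were not analysed.

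**Figure D3:**
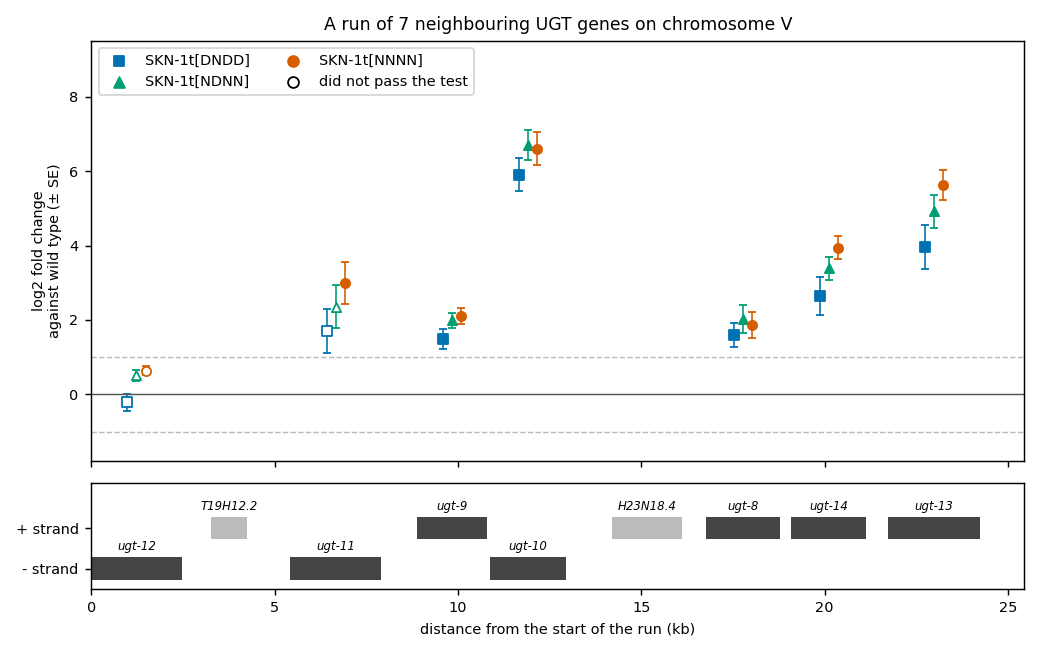
Log2 fold change against the wild type (± SE, n = 4 per group) of 7 neighbouring UGT genes on chromosome V, at their distance in kb from the start of the run, with the extent and strand of each gene below. Squares are SKN-1t[DNDD], triangles SKN-1t[NDNN] and circles SKN-1t[NNNN], open symbols did not pass the test, and the 2 grey genes are not members. 6 of the 7 genes rose in at least 1 strain, and the largest rises were those of *ugt-10* and *ugt-13*.

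The pair *ugt-35* and *ugt-34* lies elsewhere on chromosome V, at 10651995 to 10654265 and 10654415 to 10656978, both on the reverse strand. *ugt-35* gave 1 read in the 4 wild type samples together, in replicate 3. *ugt-35* had 2.84, 3.08, 1.27 and 1.28 CPM in SKN-1t[DNDD] animals, 2.63, 4.18, 2.11 and 7.05 CPM in SKN-1t[NDNN] animals and 3.49, 2.93, 5.32 and 5.80 CPM in SKN-1t[NNNN] animals, against 0, 0, 0.0417 and 0 CPM in the wild type. Summed over the group, it had 239, 481 and 477 reads in SKN-1t[DNDD], SKN-1t[NDNN] and SKN-1t[NNNN], which gave ratios to the wild type of 206 (95% exact counting interval 36.6 to 8154), 391 (69.9 to 15485) and 428 (76.5 to 16959), where the interval covers counting error only. The wide intervals follow from the single wild type read, and the groups did not overlap in any strain (edgeR adjusted p = 0.000365, 0.000173 and 5.31e-05 in SKN-1t[DNDD], SKN-1t[NDNN] and SKN-1t[NNNN]). *ugt-34* had 12.4, 14.6, 9.04 and 6.48 CPM in SKN-1t[DNDD] animals, 6.92, 10.2, 10.2 and 8.14 CPM in SKN-1t[NDNN] animals and 4.999, 5.44, 7.84 and 7.60 CPM in SKN-1t[NNNN] animals, against 0.706, 0.826, 0.459 and 0.380 CPM in the wild type. Its log2 fold changes were 4.17 ± 0.37, 3.99 ± 0.29 and 3.56 ± 0.32 in SKN-1t[DNDD], SKN-1t[NDNN] and SKN-1t[NNNN] (edgeR adjusted p = 0.000195, 4.91e-05 and 9.76e-05). *ugt-34* was the one member higher in all 3 strains whose mean was highest in SKN-1t[DNDD], but the direct comparison of SKN-1t[DNDD] with SKN-1t[NNNN] did not pass the test (edgeR adjusted p = 0.0941). *sqv-4*, the UDP-glucose dehydrogenase that makes UDP-glucuronic acid, is annotated nearby on the same strand (10659635 to 10661467) and averaged 103 ± 20.3, 119.4 ± 4.61 and 105 ± 6.23 CPM in SKN-1t[DNDD], SKN-1t[NDNN] and SKN-1t[NNNN], against 120.4 ± 29.7 CPM in the wild type.

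Of the other members higher in all 3 strains, *ugt-66* rose the furthest. *ugt-66* had 55.7, 55.5, 35.2 and 24.1 CPM in SKN-1t[DNDD] animals, 52.1, 71.5, 61.0 and 47.6 CPM in SKN-1t[NDNN] animals and 69.7, 56.4, 55.8 and 58.5 CPM in SKN-1t[NNNN] animals, against 12.6, 12.8, 9.64 and 12.3 CPM in the wild type. The log2 fold changes of *ugt-66* were 1.86 ± 0.27, 2.39 ± 0.16 and 2.46 ± 0.12 in SKN-1t[DNDD], SKN-1t[NDNN] and SKN-1t[NNNN] (edgeR adjusted p = 0.00154, 3.12e-05 and 5.13e-06), and SKN-1t[DNDD] replicates 3 and 4 were its lowest transgenic samples. *ugt-7* averaged 17.6 ± 5.45, 22.3 ± 5.75 and 21.1 ± 4.94 CPM in SKN-1t[DNDD], SKN-1t[NDNN] and SKN-1t[NNNN], against 8.25 ± 0.2504 CPM in the wild type. *ugt-45* averaged 9.49 ± 1.35, 11.6 ± 2.06 and 10.3 ± 1.63 CPM, against 4.38 ± 1.09 CPM. Both lay close to the 2-fold threshold in SKN-1t[DNDD], at log2 fold changes of 1.11 and 1.12. In that strain the *ugt-7* call was lost without SKN-1t[DNDD] replicate 1 or 2 or wild type replicate 1, 2, 3 or 4 (edgeR, highest adjusted p 0.0271). The *ugt-45* call was lost without SKN-1t[DNDD] replicate 1 or 2 or wild type replicate 1, 2 or 4 (highest adjusted p 0.0244), the *ugt-9* call without SKN-1t[DNDD] replicate 1 or wild type replicate 1, 2 or 3 (0.0182), and the *ugt-14* call without SKN-1t[DNDD] replicate 1 or 3 or wild type replicate 1, 2, 3 or 4 (0.0213). The SKN-1t[DNDD] calls of *ugt-10*, *ugt-13*, *ugt-34*, *ugt-35* and *ugt-66* held in all 8 refits.

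6 further members passed the upper threshold in some strains only. *ugt-38* had 0.378, 0.304, 0.299 and 0.329 CPM in SKN-1t[DNDD] animals, 0.945, 1.51, 1.70 and 2.09 CPM in SKN-1t[NDNN] animals and 1.58, 2.15, 2.97 and 6.06 CPM in SKN-1t[NNNN] animals, against 0.0415, 0.0435, 0.0417 and 0.342 CPM in the wild type. The wild type reads of *ugt-38* came mostly from replicate 4, and the gene was tested only in SKN-1t[NDNN] (log2 fold change 3.73 ± 0.63) and SKN-1t[NNNN] (4.80 ± 0.78), with edgeR adjusted p of 0.00235 and 0.00174, and the SKN-1t[NDNN] call was lost without wild type replicate 2 (adjusted p = 0.0106). *ugt-48* had 108, 84.0, 71.0 and 74.6 CPM in SKN-1t[DNDD] animals, 179, 151, 125 and 130.2 CPM in SKN-1t[NDNN] animals and 203, 177, 175 and 168 CPM in SKN-1t[NNNN] animals, against 85.1, 88.4, 83.9 and 99.1 CPM in the wild type. The log2 fold change of *ugt-48* in SKN-1t[NNNN] was 1.14 ± 0.08 (edgeR adjusted p = 3.87e-05), while the SKN-1t[DNDD] samples spanned the wild type range. *ugt-60* was higher in SKN-1t[NDNN] and SKN-1t[NNNN], where it averaged 35.8 ± 9.02 and 40.3 ± 8.07 CPM, against 17.9 ± 1.98 CPM in the wild type, and averaged 23.5 ± 8.13 CPM in SKN-1t[DNDD], with the SKN-1t[NDNN] call lost without SKN-1t[NDNN] replicate 1 or 2 or wild type replicate 2 (edgeR, highest adjusted p 0.0123). *ugt-55* passed in SKN-1t[NNNN] and not in the other strains, with a mean of 3.01 ± 0.964 CPM there and of 1.13 ± 0.126 CPM in the wild type, and the call was lost without SKN-1t[NNNN] replicate 2 or wild type replicate 2, 3 or 4 (edgeR, highest adjusted p 0.0174). *ugt-11* was described with its run. *ugt-57*, which averaged under 1 CPM over all samples, had 1.04, 0.391, 0.414 and 2.84 CPM in SKN-1t[NNNN], against 0.0831, 0.0869, 0.0834 and 0.0380 CPM in the wild type, with SKN-1t[NNNN] replicates 1 and 4 the highest, and the call was lost without SKN-1t[NNNN] replicate 1 or wild type replicate 1, 2, 3 or 4 (edgeR, highest adjusted p 0.0197).

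Among the members that fell, the one highest per kb in the wild type was *ugt-47* (chromosome V, 10096305 to 10098597, reverse strand). *ugt-47* had 56.7, 64.1, 127 and 127 CPM in SKN-1t[DNDD] animals, 62.7, 51.2, 83.2 and 62.9 CPM in SKN-1t[NDNN] animals and 60.6, 51.5, 42.3 and 49.97 CPM in SKN-1t[NNNN] animals, against 247, 385, 456 and 353 CPM in the wild type. The groups did not overlap, and the log2 fold changes were -1.94 ± 0.31, -2.38 ± 0.21 and -2.70 ± 0.20 in SKN-1t[DNDD], SKN-1t[NDNN] and SKN-1t[NNNN] (edgeR adjusted p = 0.00264, 0.000132 and 3.87e-05). The SKN-1t[DNDD] call was lost without wild type replicate 2 (edgeR adjusted p = 0.0101). *ugt-30* had 2.23, 4.33, 9.08 and 11.2 CPM in SKN-1t[DNDD] animals, 1.96, 1.67, 5.19 and 3.39 CPM in SKN-1t[NDNN] animals and 2.19, 2.11, 1.59 and 1.92 CPM in SKN-1t[NNNN] animals, against 20.6, 31.9, 41.8 and 34.5 CPM in the wild type. *ugt-30* showed the largest fall of the family in SKN-1t[NNNN], with log2 fold changes of -2.25 ± 0.47, -3.31 ± 0.38 and -3.92 ± 0.24 in SKN-1t[DNDD], SKN-1t[NDNN] and SKN-1t[NNNN] (edgeR adjusted p = 0.00865, 0.000426 and 1.55e-05). Its SKN-1t[DNDD] samples split, with replicates 1 and 2 below replicates 3 and 4, and that call was kept only without SKN-1t[DNDD] replicate 4 (edgeR, highest adjusted p 0.0249 in the other refits), while the SKN-1t[NNNN] call held in all 8. *ugt-6* had 37.6, 49.7, 83.6 and 68.9 CPM in SKN-1t[DNDD] animals, 50.7, 36.7, 61.3 and 43.8 CPM in SKN-1t[NDNN] animals and 41.6, 38.04, 36.8 and 35.2 CPM in SKN-1t[NNNN] animals, against 159.8, 187, 178 and 172 CPM in the wild type, again without overlap, and its log2 fold changes were -1.53 ± 0.23, -1.77 ± 0.15 and -2.08 ± 0.08 in SKN-1t[DNDD], SKN-1t[NDNN] and SKN-1t[NNNN] (edgeR adjusted p = 0.00172, 0.000111 and 1.01e-06).

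The other 5 members lower in all 3 strains were *ugt-1*, *ugt-23*, *ugt-28*, *ugt-29* and *ugt-49*. *ugt-23* had 84.8, 76.0, 95.4 and 91.8 CPM in SKN-1t[DNDD] animals, 101, 84.2, 86.4 and 81.0 CPM in SKN-1t[NDNN] animals and 109, 97.4, 89.7 and 75.3 CPM in SKN-1t[NNNN] animals, against 194, 212, 226 and 216 CPM in the wild type, with no overlap. Its log2 fold changes were -1.28 ± 0.10, -1.17 ± 0.09 and -1.08 ± 0.11 in SKN-1t[DNDD], SKN-1t[NDNN] and SKN-1t[NNNN] (edgeR adjusted p = 0.000141, 8.81e-05 and 0.000147). *ugt-1* averaged 12.4 ± 3.18, 13.3 ± 3.13 and 10.5 ± 1.71 CPM in SKN-1t[DNDD], SKN-1t[NDNN] and SKN-1t[NNNN], against 43.0 ± 6.85 CPM in the wild type. *ugt-49* averaged 33.7 ± 7.16, 36.2 ± 6.14 and 34.05 ± 2.11 CPM, against 95.0 ± 8.78 CPM. The same direction held for *ugt-28*, with 20.4 ± 1.41, 20.3 ± 3.76 and 18.7 ± 4.12 CPM, against 52.7 ± 7.25 CPM, and for *ugt-29*, with 32.3 ± 2.26, 36.4 ± 2.77 and 36.0 ± 3.58 CPM, against 78.6 ± 14.8 CPM. The log2 fold changes of these 4 genes lay between -1.91 and -1.012. *ugt-29* was close to the 2-fold threshold, which its SKN-1t[NNNN] value missed without SKN-1t[NNNN] replicate 4 or wild type replicate 3 and its SKN-1t[NDNN] value without SKN-1t[NDNN] replicate 2 or 4 or wild type replicate 3. The intestine marker sum was lower in the same samples, with 4, 4 and 3 of its 8 genes called lower in SKN-1t[DNDD], SKN-1t[NDNN] and SKN-1t[NNNN], and its part in these falls was not tested.

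**Figure D4:**
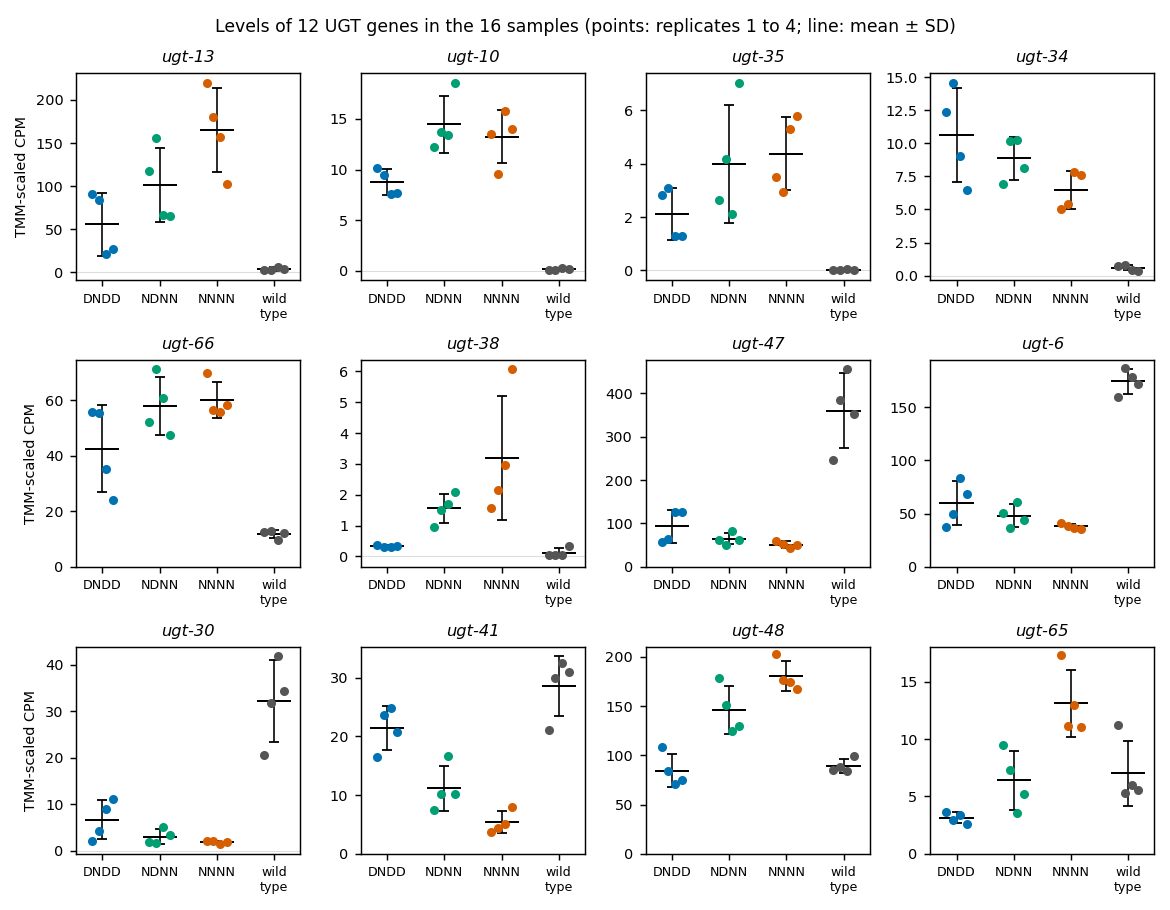
TMM-scaled CPM (y axis, linear) of 12 UGT genes in the 16 samples, by genotype (x axis). Points are replicates 1 to 4 from left to right, and lines and bars are the mean ± SD (n = 4). *ugt-13*, *ugt-10*, *ugt-35*, *ugt-34* and *ugt-66* are above the wild type in every transgenic sample and *ugt-47*, *ugt-6* and *ugt-30* below it, while *ugt-38*, *ugt-41*, *ugt-48* and *ugt-65* were called different in the direct test of SKN-1t[DNDD] against SKN-1t[NNNN].

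12 members fell past the threshold in 1 or 2 strains. *ugt-41*, *ugt-51* and *ugt-54* were lower in 2 strains, SKN-1t[NDNN] together with SKN-1t[NNNN]. *ugt-41* had 16.5, 23.7, 24.8 and 20.7 CPM in SKN-1t[DNDD] animals, 7.52, 10.1, 16.7 and 10.2 CPM in SKN-1t[NDNN] animals and 3.74, 4.46, 5.11 and 8.02 CPM in SKN-1t[NNNN] animals, against 21.1, 29.9, 32.5 and 31.0 CPM in the wild type. The SKN-1t[DNDD] samples overlapped the wild type, whereas all SKN-1t[NNNN] samples were below both. Its log2 fold change was -2.30 ± 0.27 in SKN-1t[NNNN] (edgeR adjusted p = 0.000319) and -1.27 ± 0.24 in SKN-1t[NDNN] (adjusted p = 0.00403), where the call was lost without SKN-1t[NDNN] replicate 2 or 4 or wild type replicate 2, 3 or 4 (highest adjusted p 0.014). *ugt-51* had 11.2, 19.3, 26.1 and 24.6 CPM in SKN-1t[DNDD] animals, 6.68, 7.31, 17.7 and 13.2 CPM in SKN-1t[NDNN] animals and 6.47, 6.85, 7.11 and 7.14 CPM in SKN-1t[NNNN] animals, against 28.5, 38.5, 33.2 and 33.3 CPM in the wild type. Here the 4 SKN-1t[NNNN] values lay within 1 CPM of each other and the log2 fold change was -2.16 ± 0.11 (edgeR adjusted p = 7.46e-06). Its SKN-1t[NDNN] call was lost without SKN-1t[NDNN] replicate 1, 2 or 4 or wild type replicate 2, 3 or 4 (edgeR, highest adjusted p 0.0159). *ugt-54* averaged 6.21 ± 1.66 and 5.91 ± 1.60 CPM in SKN-1t[NDNN] and SKN-1t[NNNN], against 15.8 ± 5.91 CPM in the wild type, and both calls were weak, kept in 2 and 1 of 8 refits without a sample (edgeR, highest adjusted p 0.0281 and 0.0297).

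*ugt-4*, *ugt-33* and *ugt-50* were called lower in SKN-1t[NNNN] alone. *ugt-4* had 1.02, 3.35, 4.48 and 4.57 CPM in SKN-1t[DNDD] animals and 0.575, 0.744, 0.794 and 1.34 CPM in SKN-1t[NNNN] animals, against 2.95, 4.43, 5.72 and 4.83 CPM in the wild type, and its SKN-1t[NNNN] log2 fold change was -2.24 ± 0.34 (edgeR adjusted p = 0.0012). *ugt-33* and *ugt-50* stood near the 2-fold threshold, with SKN-1t[NNNN] log2 fold changes of -1.08 and -1.02, and the calls were lost without SKN-1t[NNNN] replicate 1, 2 or 3 or wild type replicate 1, 2 or 4 for *ugt-33* (edgeR, highest adjusted p 0.0245) and without SKN-1t[NNNN] replicate 3 for *ugt-50*, which then missed 2-fold. Another 6 members were called lower in SKN-1t[DNDD] and not in SKN-1t[NNNN]: *ugt-2*, *ugt-19*, *ugt-26*, *ugt-53*, *ugt-61* and *ugt-62*, of which *ugt-2* and *ugt-53* were also lower in SKN-1t[NDNN]. *ugt-26* had 83.0, 73.5, 62.6 and 63.9 CPM in SKN-1t[DNDD] animals, 113, 109, 104 and 94.2 CPM in SKN-1t[NDNN] animals and 136, 132, 115 and 93.4 CPM in SKN-1t[NNNN] animals, against 155, 173, 245 and 195 CPM in the wild type. SKN-1t[DNDD] samples of *ugt-26* were the lowest and all 12 transgenic samples were below the wild type, with log2 fold changes of -1.43 ± 0.16, -0.77 ± 0.14 and -0.58 ± 0.16 in SKN-1t[DNDD], SKN-1t[NDNN] and SKN-1t[NNNN] (edgeR adjusted p = 0.000492, 0.00332 and 0.0215). *ugt-62* averaged 73.7 ± 15.8, 77.9 ± 7.23 and 77.0 ± 18.1 CPM in SKN-1t[DNDD], SKN-1t[NDNN] and SKN-1t[NNNN], against 162 ± 28.0 CPM in the wild type, with log2 fold changes of -1.13 ± 0.18, -0.97 ± 0.13 and -0.96 ± 0.18 in SKN-1t[DNDD], SKN-1t[NDNN] and SKN-1t[NNNN] (edgeR adjusted p = 0.00252, 0.000861 and 0.00315), so that the 3 values lay close together although 1 passed 2-fold. That call was lost without SKN-1t[DNDD] replicate 1 or 2 (highest adjusted p 0.0113). Tested directly against SKN-1t[NNNN], *ugt-26* (log2 difference -0.75 ± 0.15) and *ugt-61* (-0.82 ± 0.18) were lower in SKN-1t[DNDD] (edgeR adjusted p = 0.00496 and 0.00881). The same test did not reach an adjusted p of 0.05 for *ugt-2* (0.13), *ugt-19* (0.168), *ugt-53* (0.145) or *ugt-62* (0.825). *ugt-61* averaged 4.98 ± 0.965, 8.30 ± 1.47 and 8.78 ± 1.51 CPM in SKN-1t[DNDD], SKN-1t[NDNN] and SKN-1t[NNNN], against 12.9 ± 1.30 CPM in the wild type. *ugt-19* averaged 8.92 ± 0.816, 11.6 ± 3.06 and 12.6 ± 4.55 CPM, against 19.4 ± 3.56 CPM. *ugt-2* averaged 7.96 ± 0.738, 9.13 ± 2.01 and 11.9 ± 4.44 CPM, against 22.3 ± 5.36 CPM. *ugt-53* averaged 4.64 ± 1.16, 6.20 ± 1.12 and 7.55 ± 2.59 CPM, against 18.4 ± 8.30 CPM.

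With the replicate number as a block, the SKN-1t[NDNN] calls of *ugt-2* and *ugt-53* were lost (edgeR adjusted p = 0.0132 and 0.0212). Leaving out samples, the *ugt-2* call was lost there without wild type replicate 4 (edgeR adjusted p = 0.0112) and the *ugt-53* call without SKN-1t[NDNN] replicate 1, 2, 3 or 4 or wild type replicate 4 (0.0185), while in SKN-1t[DNDD] the *ugt-53* call was lost without SKN-1t[DNDD] replicate 3 or wild type replicate 4 (0.0118).

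Because a call in one strain and not in another does not show a difference, SKN-1t[DNDD] was also tested directly against SKN-1t[NNNN] in a fit of all 16 samples, in which 63 members were tested. 3 members were higher in SKN-1t[DNDD], against 1.88% of all genes, and 3 were lower, against 0.734%. The higher members were *ugt-33*, *ugt-41* and *ugt-51*, and the lower members were *ugt-38*, *ugt-48* and *ugt-65*. With the replicate number as a block the higher members became 5, adding *ugt-4* and *ugt-30*, against 6.23% of all genes in that fit, and the lower members stayed at 3, against 1.37%. Without SKN-1t[NNNN] replicate 1, 2 or 3, 1 member, *ugt-41*, was called higher in place of 3. The *ugt-33* call was lost without SKN-1t[NNNN] replicate 1, 2 or 3 or SKN-1t[DNDD] replicate 2 (edgeR, highest adjusted p 0.0152) and the *ugt-51* call without SKN-1t[NNNN] replicate 1, 2 or 3 or SKN-1t[DNDD] replicate 3 or 4 (0.0153), whereas all 3 lower calls held in all 8 refits. *skn-1* itself was lower in SKN-1t[DNDD] relative to SKN-1t[NNNN] (log2 fold change -0.34 ± 0.10, edgeR adjusted p = 0.0324), and its part in these differences was not tested.

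The per-sample levels of these 6 members show how far apart the strains were. *ugt-41* had 16.5, 23.7, 24.8 and 20.7 CPM in SKN-1t[DNDD], against 3.74, 4.46, 5.11 and 8.02 CPM in SKN-1t[NNNN], a log2 difference of 2.01 ± 0.27 (edgeR adjusted p = 0.000209). *ugt-51* had 11.2, 19.3, 26.1 and 24.6 CPM in SKN-1t[DNDD], against 6.47, 6.85, 7.11 and 7.14 CPM in SKN-1t[NNNN], a log2 difference of 1.56 ± 0.30 (edgeR adjusted p = 0.00369). *ugt-33* had 3.71, 4.97, 4.18 and 4.28 CPM in SKN-1t[DNDD], against 1.98, 2.07, 1.86 and 2.53 CPM in SKN-1t[NNNN], at the edge of 2-fold (1.02 ± 0.19, edgeR adjusted p = 0.00332). For all 3, the wild type mean was above both strains. In the opposite direction, *ugt-48* had a log2 difference of -1.10 ± 0.14 (edgeR adjusted p = 0.000124), from the sample values already given, and its SKN-1t[DNDD] mean was close to the wild type. *ugt-38* had a log2 difference of -3.27 ± 0.55 (edgeR adjusted p = 0.00159), and its SKN-1t[DNDD] samples, at 0.299 to 0.378 CPM, overlapped the wild type range of 0.0415 to 0.342 CPM. *ugt-65* had 3.67, 2.91, 3.36 and 2.63 CPM in SKN-1t[DNDD] animals, 9.51, 7.34, 3.57 and 5.22 CPM in SKN-1t[NDNN] animals and 17.3, 11.1, 12.9 and 11.1 CPM in SKN-1t[NNNN] animals, against 11.3, 5.30, 6.01 and 5.51 CPM in the wild type. The SKN-1t[DNDD] samples were below and the SKN-1t[NNNN] samples above the wild type median, the log2 difference of SKN-1t[DNDD] from SKN-1t[NNNN] was -2.06 ± 0.31 (edgeR adjusted p = 0.000643), and wild type replicate 1 was above the other 3.

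Of the 66, *ugt-65* was the only member whose differences from the wild type had an adjusted p below 0.05 in opposite directions. The share of all genes with such opposite differences at this cutoff was not counted. The log2 fold change of *ugt-65* was -1.15 ± 0.28 in SKN-1t[DNDD] (edgeR adjusted p = 0.0176) and 1.013 ± 0.28 in SKN-1t[NNNN] (adjusted p = 0.0202). Neither passed the 0.01 threshold, and both did with the replicate number as a block (edgeR adjusted p = 0.00505 and 0.00351), although the numbers did not meet the criterion for pairing in the SKN-1t[NNNN] comparison.

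At an adjusted p below 0.05 without a fold threshold, 10 members were higher in SKN-1t[DNDD] relative to SKN-1t[NNNN], against 7.68% of all genes, and 11 were lower, against 5.95%, or 13 and 13 with the replicate number as a block, against 20.7% and 14.6%. With the block the higher members thus stood close to the share of all genes under both thresholds. The higher ones were *ugt-4*, *ugt-6*, *ugt-30*, *ugt-33*, *ugt-41*, *ugt-43*, *ugt-47*, *ugt-50*, *ugt-51* and *ugt-52*, and their median log2 difference was 1.29. In all 10 the wild type mean was above that of SKN-1t[NNNN], and in 9 the SKN-1t[DNDD] mean was nearer to the wild type mean. The lower ones were *ugt-12*, *ugt-13*, *ugt-14*, *ugt-22*, *ugt-26*, *ugt-38*, *ugt-48*, *ugt-58*, *ugt-60*, *ugt-61* and *ugt-65*, with a median of -0.82. In 8 of the 11 the wild type mean was below that of SKN-1t[NNNN]. Choosing members by this difference favours a wild type mean on the SKN-1t[DNDD] side of SKN-1t[NNNN] in both lists. The same was not counted over all genes, so the positions of the wild type mean are not read as a result about the family. The SKN-1t[NDNN] mean lay between the other strains in 8 of the 10 higher members and in 11 of the 11 lower ones. The exceptions were *ugt-43* and *ugt-50*. Picking members whose means stand apart in the other strains also favours a middle place for SKN-1t[NDNN]. How often all genes picked in this way had such a place was not counted. The SKN-1t[NDNN] positions are therefore not read as a graded pattern of the family. Several of the log2 differences of these members were uneven between replicates. For *ugt-47*, the mean log2 difference was 0.11 over replicates 1 and 2, compared with 1.46 over replicates 3 and 4, and for *ugt-30* the same values were 0.53 and 2.52. For *ugt-13* they were -1.20 and -2.42, whereas for *ugt-65* they were -2.08 and -2.0. The sperm and vitellogenin sums were highest among the transgenic samples in SKN-1t[DNDD] replicates 3 and 4, and their part in these values was not tested.

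**Figure D5:**
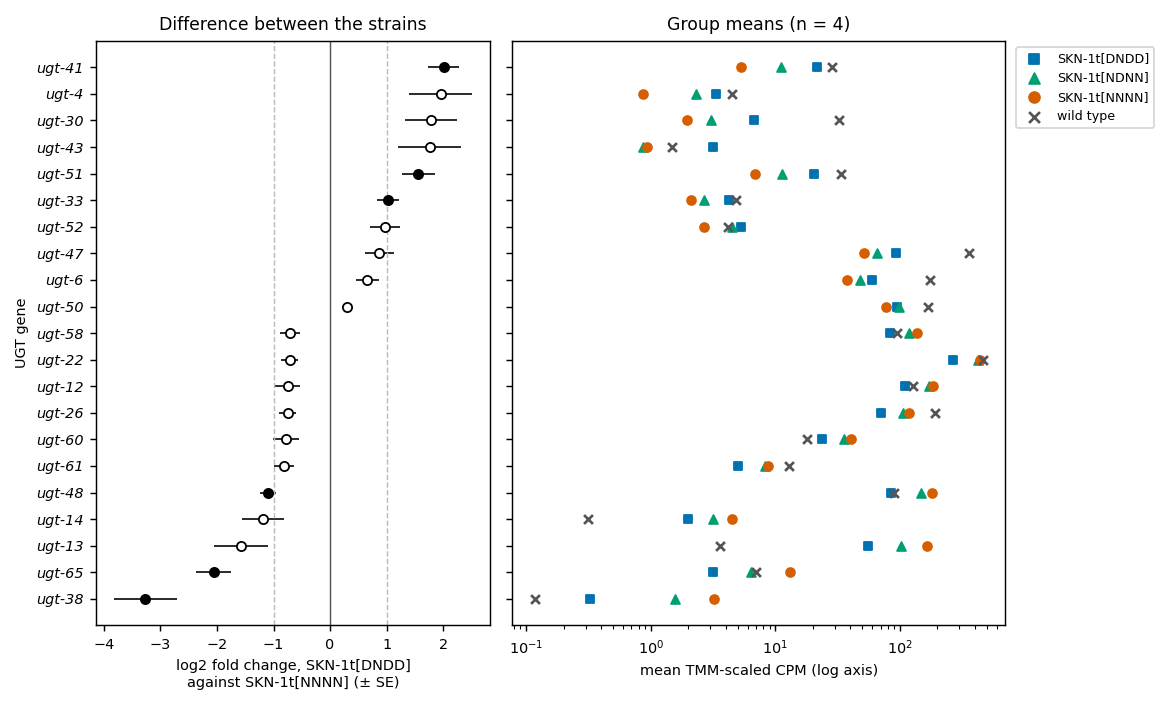
Left, log2 fold change of SKN-1t[DNDD] against SKN-1t[NNNN] (± SE, edgeR fit of 16 samples) for the 21 UGT genes with an adjusted p below 0.05 in this comparison and a mean of at least 1 CPM. Filled points also passed 2-fold and 0.01, and dashed lines mark 2-fold. Right, mean TMM-scaled CPM (log axis, n = 4) of the same genes in each genotype. The SKN-1t[NDNN] mean lies between the other strains for 8 of the 10 genes above 0 and for the 11 below it. Choosing genes by the difference on the left favours this middle place, and its share among all genes was not counted.

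Both other direct comparisons gave few calls. SKN-1t[DNDD] against SKN-1t[NDNN] gave 0 members higher and 0 lower, against 0.128% of all genes in each direction. At an unadjusted p below 0.05 edgeR gave 8 higher and 10 lower, against 9.02% and 9.41% of all genes, and DESeq2 with the same thresholds as the main test called 0 higher and 1 lower. At an adjusted p below 0.05 alone edgeR gave 0 higher and 2 lower, *ugt-22* and *ugt-48*, against 0.747% and 0.862% of all genes. *ugt-22* had 299.9, 259, 235.5 and 279 CPM in SKN-1t[DNDD] and 401, 393, 393 and 518 CPM in SKN-1t[NDNN] (log2 difference -0.67 ± 0.15, edgeR adjusted p = 0.0365), with no overlap. When 1 sample was left out, the adjusted p of this difference reached 0.118 (edgeR). *ugt-48* differed by -0.79 ± 0.14 (edgeR adjusted p = 0.00949). With the replicate number as a block, the same comparison gave 7 higher members at an adjusted p below 0.05, against 14.8% of all genes, and 10 lower, against 7.8%, and 1 lower call past 2-fold and 0.01, *ugt-38*, against 0.377%. SKN-1t[NDNN] against SKN-1t[NNNN] gave 0 higher, against 0.35% of all genes, and 0 lower, against 0.0135%, and at an adjusted p below 0.05 alone also 0 and 0, against 0.781% and 0.0269%. At an unadjusted p below 0.05 edgeR gave 6 higher and 4 lower, against 6.97% and 3.12% of all genes, DESeq2 called 0 and 0, and there was 1 higher member with the replicate number as a block, *ugt-41* (edgeR adjusted p = 0.0097), against 0.418% of all genes.

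25 tested members passed the test in no strain, and for 14 of these at least 1 adjusted p was below 0.05. Among the 14, 10 were on the lower side, 3 on the higher side and *ugt-65* on both, and 4 were lower with an adjusted p below 0.05 in all 3 strains, by less than 2-fold. At that cutoff 13.4% to 20% of all genes tested were higher and 14.8% to 17.1% lower in a single comparison, called or not. The matching share of all genes over the 3 comparisons together was not counted. With the replicate number as a block, *ugt-15* passed the lower threshold in SKN-1t[DNDD] (edgeR adjusted p = 0.00159), having missed it without the block (adjusted p = 0.0312). *ugt-22*, the highest member per kb in every genotype, was one of the 25. *ugt-22* had 299.9, 259, 235.5 and 279 CPM in SKN-1t[DNDD] animals, 401, 393, 393 and 518 CPM in SKN-1t[NDNN] animals and 447, 421, 399.7 and 494 CPM in SKN-1t[NNNN] animals, against 352, 403, 517 and 578 CPM in the wild type. The SKN-1t[DNDD] samples were below all others, with a log2 fold change of -0.78 ± 0.17 against the wild type (edgeR adjusted p = 0.00943), and the other strains overlapped the wild type. *ugt-58* averaged 83.6 ± 20.5, 118 ± 20.2 and 136 ± 24.5 CPM in SKN-1t[DNDD], SKN-1t[NDNN] and SKN-1t[NNNN], against 94.0 ± 5.84 CPM in the wild type. *ugt-43* and *ugt-52* were low, at means of 3.18 and 5.26 CPM in SKN-1t[DNDD], 0.866 and 4.48 CPM in SKN-1t[NDNN] and 0.934 and 2.69 CPM in SKN-1t[NNNN], against 1.48 and 4.14 CPM in the wild type. 5 members (*ugt-3*, *ugt-18*, *ugt-36*, *ugt-40* and *ugt-42*) passed the filter on low counts in no comparison with the wild type, and averaged 0.0983 to 0.297 CPM over the 16 samples. Their read counts were low but not alike in every genotype. *ugt-40* had 10, 15, 5 and 3 reads in SKN-1t[DNDD], 7, 9, 15 and 11 reads in SKN-1t[NDNN] and 7, 11, 6 and 13 reads in SKN-1t[NNNN], against 3, 2, 0 and 2 reads in the wild type. In scaled level, *ugt-40* was above the wild type in all SKN-1t[NDNN] and SKN-1t[NNNN] samples, *ugt-3* was below it in all SKN-1t[DNDD] samples and *ugt-18* in all SKN-1t[NDNN] samples, and these differences were not tested.

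Neighbouring members did not all move together. 11 runs of members separated by at most 10000 bases held 36 of the 66 genes. Beside the run of 7 and the *ugt-35* and *ugt-34* pair, the pair *ugt-1* and *ugt-2* (chromosome V, 10395663 to 10401307) had 2 of 2 members lower in SKN-1t[DNDD], likewise 2 in SKN-1t[NDNN], and 1 of 2 for SKN-1t[NNNN]. In the run of *ugt-5*, *ugt-4*, *ugt-6* and *ugt-3* (chromosome V, 12790676 to 12800271), *ugt-6* was lower in all 3 strains and *ugt-4* in SKN-1t[NNNN], while *ugt-5* passed in none. In the run that holds *ugt-38* and *ugt-41* (chromosome V, 7139475 to 7169281), *ugt-38* was higher and *ugt-41* lower in the SKN-1t[NDNN] comparison, as in that of SKN-1t[NNNN].

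None of the 5 genes followed that make, convert or transport UDP-sugars passed the test. They were *sqv-4*, *rml-1* (UDP-glucose pyrophosphorylase), *gale-1* (UDP-galactose 4-epimerase), *sqv-1* (UDP-glucuronic acid decarboxylase) and the UDP-sugar transporter gene *sqv-7*. 0 of 5 were called higher or lower in any strain or direct comparison, with or without the replicate block, and 2 of the 5 had an unadjusted p below 0.05 in at least 1 strain against the wild type (edgeR). Their summed level was 505 to 699.5 CPM in SKN-1t[DNDD], 657 to 797 CPM in SKN-1t[NDNN] and 555.1 to 779.7 CPM in SKN-1t[NNNN], against 607 to 758 CPM in the wild type, so the groups overlapped. At an adjusted p below 0.05, *rml-1* was lower in SKN-1t[DNDD] and SKN-1t[NNNN], with means of 288 ± 11.3 and 259 ± 27.6 CPM and 354 ± 21.2 CPM in the wild type (edgeR adjusted p = 0.0326 and 0.0177, and 0.0762 in SKN-1t[DNDD] with a replicate block), and *gale-1* was higher in SKN-1t[NNNN], with 230.2 ± 75.9 CPM and a wild type mean of 129.9 ± 46.7 CPM (adjusted p = 0.0386), with overlapping samples. In SKN-1t[NDNN], *gale-1* averaged 226 ± 73.7 CPM (edgeR adjusted p = 0.0537), and with the replicate number as a block its log2 fold change was 0.91 and its adjusted p 0.00629, higher in 4 of 4 pairs and short of 2-fold.

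The exons of 17 of the 66 members overlap those of another annotated gene. Of the 41 members named by rule, 6 overlap a protein-coding gene. *ugt-22* shares 309 bases with *srz-29*, *ugt-50* shares 424 with *nhr-26*, *ugt-48* shares 121 with *cft-1*, *ugt-47* shares 98 with *srd-49* and *ugt-35* shares 3 with *aqp-6*, all on opposite strands. *ugt-55* shares 18 bases with T04H1.12 on the same strand. *ugt-10* shares 149 bases with the non-coding RNA gene T19H12.14 and *ugt-57* shares 76 with F01E11.8, also non-coding, both on opposite strands. *ugt-40* shares 42 bases with *ugt-37* on the same strand. The libraries were stranded, but the strand setting used for counting is not given in the sources used here, so reads in these overlaps cannot be assigned with certainty.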

How the data were processed

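Poly(A) RNA was sequenced from 16 whole-animal samples of 4 genotypes, 4 samples each, grouped by the genotype in the sample labels. The deposited values are whole-number read counts per gene: per the submitters' processing notes, the authors checked reads with FastQC 0.11.9 and aligned them with STAR 2.7.7a to build WBcel235, and per the study's methods STAR gave the gene counts. The strand setting and the handling of reads that match several genes are not given in the sources used here. Counts were summed per sample (23806929 to 30457636 reads), which sets the counting precision.

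Counts were tested with edgeR 4.0.16 in R 4.3.3 (quasi-likelihood test, TMM scaling, the filterByExpr filter set to a minimum of 10 reads per sample (scaled to library size) and 15 over all samples, Benjamini-Hochberg adjustment over all genes tested). Tests against the wild type used a separate 8-sample fit per strain, and tests of strains against each other a fit of all 16. A call needed a change of more than 2-fold and an adjusted p below 0.01. The scripts were tested on simulated data first. Tables and plots were made with Python 3.11.15, pandas 2.3.3 and matplotlib 3.10.9. Levels are CPM with TMM factors over all 16 samples, and values per kb use the deposited gene lengths. Named members were those called in at least 1 comparison or with an adjusted p below 0.05 between 2 strains, both with a mean of at least 1 CPM, and the 5 highest per kb in the wild type, which gave 41. Members outside this rule that are singled out (*ugt-5*, *ugt-15*, *ugt-57* and the untested ones) were chosen after their values were seen. The members and gene lists were chosen with earlier results of these data known.

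Samples with the same replicate number correlated in their deviations from the group means with r of 0.063 to 0.79 over 24 pairs. For SKN-1t[NNNN] against the wild type, r was 0.13, 0.44, 0.063 and 0.52 for replicates 1 to 4. As 1 pair fell below 0.1, the numbers were not taken to pair those samples, although every r was positive. In the other 5 comparisons all pairs were above 0.1. The main tests still used no replicate block in any comparison, because they followed the study's methods, which name none. Results with the block are given beside them where they were counted. Alternatives were DESeq2 1.42.0, median-ratio (RLE) scaling, no filter, another choice of fitted samples, a replicate block, newer quasi-dispersions, a 1.5-fold and 0.05 threshold, and each sample left out in turn. No 2 samples of the same genotype were alike within sampling noise, and samples of different genotypes were not compared in this way. The sequences and promoters of the members were not analysed here.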

Additional observations from a re-analysis of the deposited data

Results flagged for a closer look

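In 5 of 164 genotype groups of the 41 named members, 1 sample lay far from the other 3, against about 8.2 expected by chance at 1 in 20. SKN-1t[NDNN] replicate 4 had 518 CPM of *ugt-22*, against 393 to 401 CPM in the other SKN-1t[NDNN] samples. The remaining 4 were wild type samples. Replicate 1 had 11.3 CPM of *ugt-65*, against 5.30 to 6.01 CPM in the others. Replicate 3 had 9.64 CPM of *ugt-66*, against 12.3 to 12.8 CPM, and 0.0417 CPM of *ugt-35*, which is 1 read, against 0 in the others. Replicate 4 had 0.342 CPM of *ugt-38*, against 0.0415 to 0.0435 CPM.

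Direct tests of one strain against another passed an adjusted p of 0.05 for 21 members in SKN-1t[DNDD] against SKN-1t[NNNN] (edgeR quasi-likelihood test, Benjamini-Hochberg). The log2 differences of the 10 higher members were 2.01 for *ugt-41*, 1.95 for *ugt-4*, 1.78 for *ugt-30*, 1.76 for *ugt-43*, 1.56 for *ugt-51*, 1.02 for *ugt-33*, 0.97 for *ugt-52*, 0.87 for *ugt-47*, 0.66 for *ugt-6* and 0.30 for *ugt-50*. Those of the 11 lower members were -3.27 for *ugt-38*, -2.06 for *ugt-65*, -1.57 for *ugt-13*, -1.18 for *ugt-14*, -1.10 for *ugt-48*, -0.82 for *ugt-61*, -0.78 for *ugt-60*, -0.75 for *ugt-26*, -0.75 for *ugt-12*, -0.71 for *ugt-22* and -0.71 for *ugt-58*. SKN-1t[DNDD] against SKN-1t[NDNN] passed for 2 members, *ugt-48* at -0.79 and *ugt-22* at -0.67. With 1 sample left out, the highest edgeR adjusted p against SKN-1t[NNNN] exceeded 0.05 for several members. It was 0.191 for *ugt-43*, 0.163 for *ugt-6*, 0.147 for *ugt-47*, 0.137 for *ugt-60*, 0.135 for *ugt-14* and 0.119 for *ugt-13*. It was 0.114 for *ugt-50*, 0.111 for *ugt-12*, 0.099 for *ugt-4*, 0.078 for *ugt-52*, 0.0643 for *ugt-30* and 0.0621 for *ugt-58*. Against SKN-1t[NDNN] it was 0.118 for *ugt-22*.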

How the results depend on the processing

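The alternatives were followed only for fold changes of the named members and *ugt-57* with an adjusted p below 0.05 in the main test. None of these turned its direction, which the choice made unlikely in advance. Outside that set signs could turn, as for *gale-1* in SKN-1t[DNDD] against the wild type, with log2 fold changes of 0.089 without and -0.012 with the block. RLE scaling, no filter and newer quasi-dispersions left every count of UGT genes within 1.5 times. With a 1.5-fold and 0.05 threshold, the lower members numbered 24 in SKN-1t[DNDD] and 23 in SKN-1t[NDNN] against the wild type, SKN-1t[DNDD] against SKN-1t[NNNN] gave 9 higher and 11 lower, and SKN-1t[DNDD] against SKN-1t[NDNN] gave 2 lower. DESeq2 gave 5 higher SKN-1t[DNDD] members against SKN-1t[NNNN] and 1 lower against SKN-1t[NDNN]. A fit of 2 strains only gave 1 higher against SKN-1t[NNNN], with fewer samples behind the estimate of spread. The share of all genes was not counted with the 1.5-fold and 0.05 threshold, DESeq2 or the fit of 2 strains. The member counts under these settings are therefore not read as a result about the family. With the replicate number as a block, SKN-1t[DNDD] against SKN-1t[NNNN] gave 5 higher, against 6.23% of all genes. SKN-1t[DNDD] against SKN-1t[NDNN] gave 1 lower, against 0.377%, and SKN-1t[NDNN] against SKN-1t[NNNN] 1 higher, against 0.418%. In SKN-1t[NDNN] against the wild type the block gave 11 higher, against 6.51% of all genes, and 11 lower, against 3.75%. The numbers did not meet the criterion for pairing in SKN-1t[NNNN] against the wild type. There the block gave 16 higher, against 6.32% of all genes, and 12 lower, against 5.28%, losing *ugt-11*, *ugt-29* and *ugt-33* and adding *ugt-65*. The block changed no other call than these and those given in the report. Without TMM scaling, the family sum averaged 1996 CPM in SKN-1t[DNDD] and 2902 CPM in the wild type.

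Leaving out 1 sample, the higher members numbered 5 to 10 in SKN-1t[DNDD], the lower members 8 to 14 in SKN-1t[NDNN], and the higher members 1 to 4 in SKN-1t[DNDD] against SKN-1t[NNNN]. Of the fold changes of single genes, 113 of these refits no longer passed the threshold, 10 newly passed it and 861 kept their side. The 861 include fold changes that passed in neither fit, so they do not measure how stable the calls were. Apart from the settings named, the cause of these shifts was not tested. Members under about 1 CPM rest on few reads, and reads shared with related genes or overlapping exons could not be separated here.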
